A study of Drosophila melanogaster with 11 samples.

Results

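The larval fat bodies of 2 isofemale strains of Drosophila melanogaster, MU14 and MU17, were set against those of 3 further strains from the same German population, MU10, MU12 and MU26. A gene was counted as a member of this split when MU14 and MU17 both lay above, or both lay below, all 3 other strains in mean log2 CPM, with each strain given the same weight. Of the 8415 genes that passed a filter on low counts, 1883 were members, or 22.4%, of which 1019 (12.1%) were higher and 864 (10.3%) were lower in MU14 and MU17. In counts simulated with equal strain levels, except in 100 genes changed 2-fold and 100 changed 4-fold, 1818 of 8415 genes met the rule. Of these 1818, 1621 had no change put in, so the number of members alone does not show differences between strains. The pairing of the strains and the member genes were both chosen from these expression values. The differences between the 2 groups of strains are therefore given as a description, with no test.

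Fat bodies were dissected from female late wandering larvae for RNA-seq of poly-A RNA, and each library was made from a pool of 15 fat bodies. MU14 had 3 libraries and MU17 had 2, against 2 libraries each for MU10, MU12 and MU26. All 5 strains were wild-derived lines without any treatment or introduced allele, and their larvae were staged at 25°C with 250 larvae per vial on medium with 5% bromophenol blue, a dye that shows when the gut empties. The study calls the replicates biological.

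The fat body is the insect organ that does the work of both liver and adipose tissue. It stores glycogen and triglyceride, secretes the storage proteins that feed metamorphosis, releases trehalose and lipoprotein into the blood, detoxifies foreign compounds and secretes immune peptides. Each isofemale strain was founded by 1 wild female, so that larvae of a strain share much of their genome while strains differ. Late wandering larvae have stopped feeding, and their salivary glands fill with the glue that will fix the pupal case.

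Total counts ranged from 35945293 to 41331149 in the libraries of MU14 and MU17 and from 34631482 to 49582725 in those of MU10, MU12 and MU26. The most abundant gene was Fbp1, which encodes a receptor for storage proteins and is made in the larval fat body. It held 22.0% to 27.6% of the counts in MU14 and MU17 libraries and 16.6% to 28.7% in the others. The summed level of 9 fat body marker genes overlapped between the groups, at 300489 to 344026 CPM in MU14 and MU17 against 314153 to 457138 CPM in MU10, MU12 and MU26, and all 9 were expressed in every library. Fbp1 made up most of this sum, at 206629 to 237382 CPM against 160899 to 329817 CPM. By gene, all 9 markers had a negative mean difference, with a median of -0.45 log2 units, and 2 of them, Lsp1beta and Lsp1gamma, were lower members, although libraries overlapped in each. The part of this shift in the lower metabolic lists was not tested. In such pooled tissue, fewer cells of a type and less RNA per cell cannot be told apart.

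The pairing of MU14 with MU17 was taken from the second axis of variation, so the positions of the strains on it are a description. In a principal component analysis of log2 CPM, the first 4 components held 26.1%, 21.7%, 18.9% and 16.1% of the variance. On the second, MU14 libraries scored -15.2, -17.2 and -16.8 and MU17 libraries -53.8 and -41.7, against 22.0 and 26.0 in MU10, 13.7 and 21.7 in MU12 and 30.6 and 30.7 in MU26. The 2 strains thus shared a side of the second component, with MU17 farther out. On the third component they lay at opposite ends, at 33.1 to 38.5 in MU14 and at -38.0 and -27.8 in MU17.

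**Figure D1:**
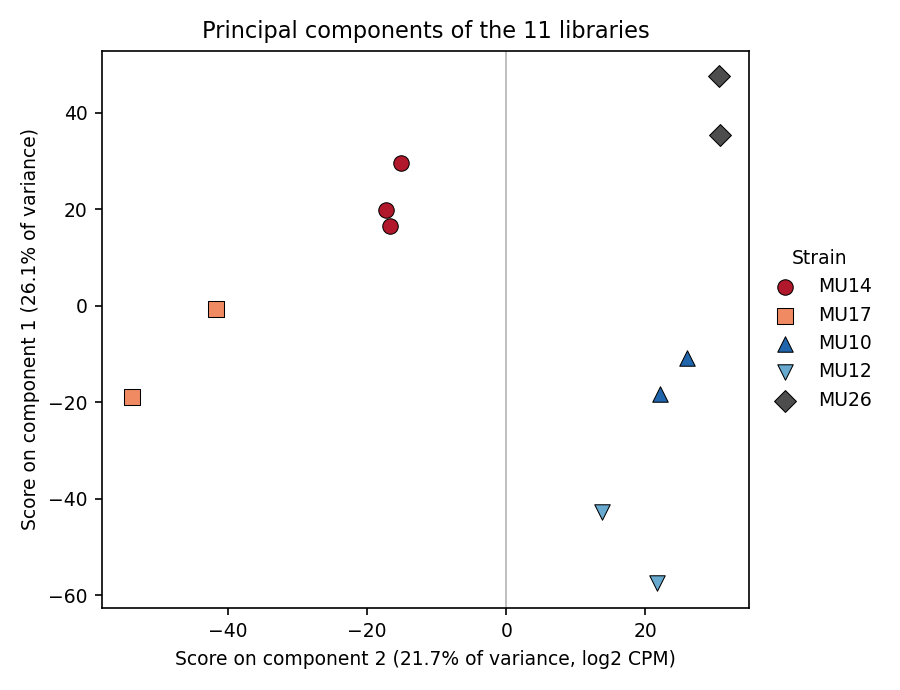
Scores of the 11 libraries on the second principal component (horizontal axis) and the first (vertical axis) of log2 CPM, with 1 point per library and 1 colour and symbol per strain. The 5 libraries of MU14 and MU17 lie left of 0 and the 6 libraries of MU10, MU12 and MU26 lie right of it, while the first component spreads the strains within both groups.

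Most members differed by modest amounts. The median size of the log2 difference between the groups was 0.73 for the higher members and 0.34 for the lower ones, against 0.21 over all tested genes. A difference of at least 2-fold was seen in 315 higher and 108 lower members. In 437 members (5.19% of tested genes) no library of MU14 or MU17 overlapped with a library of the other strains, 247 of them higher (2.94%) and 190 lower (2.26%). The nearest strains of the groups were at least 1 log2 unit apart in 58 higher (0.689%) and 14 lower (0.166%) genes. At the edge of the rule, ebi and tow just met it as lower genes, with gaps of 3.18e-05 and 3.73e-06 log2 units between the nearest strains. The genes insv and Trm7-34 just missed it, with gaps of -3.84e-05 and -4.27e-05 log2 units, negative where strains cross.

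Choosing genes from some of the libraries shows how far the membership of single genes depended on the libraries used. The other libraries came from the same 5 strains and had also served to pair MU14 with MU17, so differences between strains return in them by construction and the shares lend no support to the split. The replicate 1 libraries alone, 1 per strain, chose 847 higher genes. In the 6 other libraries 409 of these (48.3%) met the rule again in the same direction, against 13.5% of all tested genes on that side, and 89.4% kept the sign of the difference, against 50.1% of all genes. Their median log2 difference was 0.81 where they were chosen and 0.64 in the 6 other libraries. Of 803 lower genes 318 (39.6%) met the rule again, against 11.6% of all genes, 80.3% kept the sign, and the median difference was -0.36 where chosen and -0.22 in the others. With replicate 2 choosing, 405 of 1170 higher genes (34.6%) and 316 of 1019 lower genes (31%) met the rule again, against 10.2% of all tested genes on each side. The median log2 difference was 0.80 where chosen and 0.40 in the others for the higher genes, and -0.45 and -0.21 for the lower genes.

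**Figure D2:**
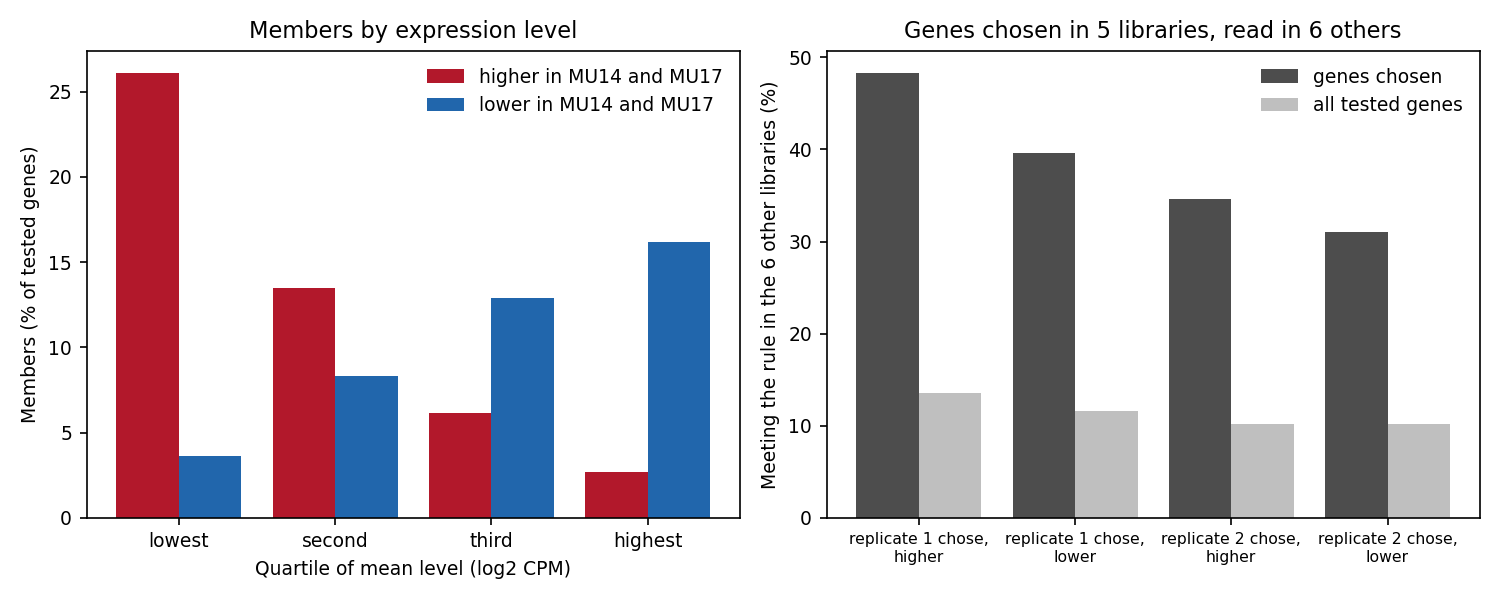
Left, members as a percentage of tested genes in each quartile of mean expression level, with 1 bar for each direction. Right, the percentage of genes chosen from 5 libraries that met the rule again in the 6 others, beside the percentage of all tested genes that met it there. Higher members made up 26.1% of the lowest quartile and 2.66% of the highest, and 31% to 48.3% of the chosen genes met the rule again.

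Differences inside each group of strains do not enter the rule directly and could be tested, though the rule removes genes in which such differences reach across the groups. Between MU14 and MU17, 1395 genes (16.6%) differed by edgeR's quasi-likelihood test at a false discovery rate of 0.05, 690 higher in MU14 (8.2%) and 705 higher in MU17 (8.38%). Among members the count was 141 (7.49%), of which 68 were higher in MU14 and 73 in MU17. Among MU10, MU12 and MU26, 2737 genes (32.5%) and 252 members (13.4%) were called. Neither test called 1518 of the 1883 members, against 5002 of the 8415 tested genes. MU17 lay farther from the 3 other strains than MU14 did in 952 of the 1883 members, against 4514 of the 8415 tested genes. The counts of calls moved with single libraries. Without MU14 replicate 1 or 2 the test between MU14 and MU17 called 785 or 868 genes and 76 or 86 members, and without MU17 replicate 1 or 2 it called 674 or 775 genes, with 67 members in the first case. Without MU10 replicate 1 or 2 the test among MU10, MU12 and MU26 called 144 or 150 members.

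The member with the widest gap was Cln7 (FBgn0035767, chromosome 3L, 7341884 to 7345183 of the Release 6 assembly), which encodes a lysosomal membrane transporter whose human relative is mutated in a neuronal storage disease. It had 54.1, 43.9 and 39.6 CPM in MU14 and 31.5 and 29.2 CPM in MU17, against a lowest value of 1.77, a median of 2.23 and a highest of 2.70 CPM in MU10, MU12 and MU26. All 5 libraries of MU14 and MU17 were thus more than 3 log2 units above the 6 others, with 3.41 log2 units between the nearest libraries. The fitted log2 difference was 4.08 ± 0.11 (SE). This SE, like those of all group differences below, reflects the spread of libraries within strains and leaves out the spread between strains of a group. Cln7 overlaps the end of its neighbour lark, which was no member, at 41.8 to 54.5 CPM in MU14 and MU17 and 44.6 to 78.7 CPM in the other strains.

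Other higher members without overlap included genes of transport, polyamine synthesis and signalling. Zip89B, a zinc transporter of the ZIP family, had 4.79, 6.75 and 7.63 CPM in MU14 and 16.6 and 24.8 CPM in MU17, against 0.147, 0.598 and 1.39 CPM as the lowest, median and highest in the other strains. It was higher in both strains, and within the pair it was lower in MU14 than in MU17 by a log2 difference of -1.70 ± 0.27 (SE, edgeR's adjusted p = 0.00456). SpdS, the spermidine synthase gene, had 35.3, 34.8 and 33.1 CPM in MU14 and 28.5 and 30.7 CPM in MU17, against 8.74, 10.9 and 17.0 CPM in MU10, MU12 and MU26. Its levels were close within the pair, and the fitted log2 difference between the groups was 1.48 ± 0.14 (SE). The uncharacterised gene CG30456 was closer still within the pair, at 16.4, 19.8 and 18.8 CPM in MU14 and 17.2 and 17.3 CPM in MU17, against 1.56, 2.88 and 4.10 CPM. The gene robo2, a receptor for the guidance cue Slit, was at 36.3 to 70.9 CPM in MU14 and MU17 and at 12.2 to 25.9 CPM in the others. CG15553, CG34437 and CG11170 completed the rule's list of 12 with secreted and immune genes, given below, and had log2 differences of 2.55 ± 0.26, 1.46 ± 0.07 and 0.69 ± 0.09 (SE).

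In some higher members 1 strain or 1 library carried most of the difference. The gene tbc had 0.346, 0.344 and 0.559 CPM in MU14 and 30.7 and 11.7 CPM in MU17, against 0, 0.0911 and 0.136 CPM in the others. The groups did not overlap, but MU14 was nearer to the 3 other strains than to MU17 (MU14 minus MU17, -5.66 ± 0.45 (SE) on the log2 scale, edgeR's adjusted p = 0.000119). CG43133 had 32.5, 21.7 and 47.6 CPM in MU14 but 0 and 0.0848 CPM in MU17, against at most 0.0347 CPM elsewhere, so that its membership rested on a few counts in MU17. PH4alphaPV, a prolyl 4-hydroxylase gene, and CG18265 were the reverse case, at 2.80 to 176 and 8.11 to 11.4 CPM in MU17 and at no more than 0.186 and 0.123 CPM in MU14. These were the 3 higher members with the widest MU14 to MU17 difference, and in each of them libraries of the groups overlapped.

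**Figure D3:**
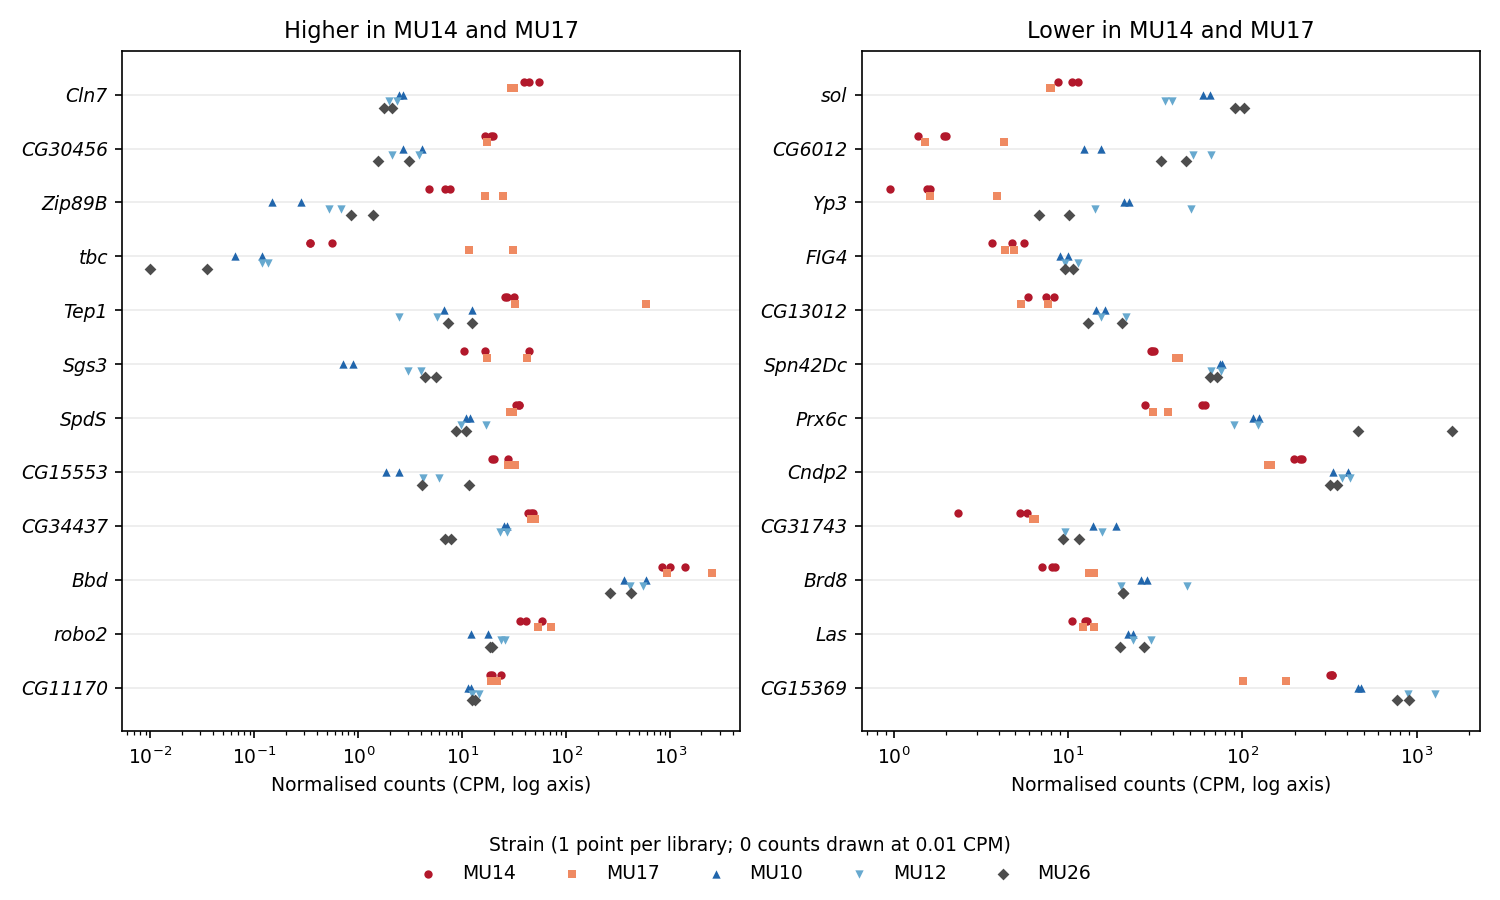
Normalised counts per library (horizontal log axis, CPM) of the 12 higher (left) and 12 lower (right) members with the widest gap between the nearest libraries of the groups, ordered from the widest at the top. In every gene the red and orange points of MU14 and MU17 stand clear of the blue and grey points of MU10, MU12 and MU26, from 3.41 log2 units in Cln7 to 0.36 in CG11170.

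The lower member with the widest gap was sol, which encodes a calpain-type protease first found through its effect on the optic lobes. It had 11.4, 10.6 and 8.72 CPM in MU14 and 7.95 and 7.93 CPM in MU17, against 36.2, 62.3 and 103 CPM as the lowest, median and highest in MU10, MU12 and MU26. The groups were apart, and among the other strains MU12 was lowest and MU26 highest in sol, at means of 37.8 and 96.9 CPM. The fitted log2 difference was -2.76 ± 0.09 (SE). Yp3, a yolk protein gene best known from the adult female fat body, had 0.957, 1.55 and 1.63 CPM in MU14 and 3.90 and 1.61 CPM in MU17, against 6.81, 17.6 and 50.7 CPM. CG6012 was low in both strains, at 1.38 to 4.31 CPM against 12.4 to 66.4 CPM.

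Further lower members encode enzymes and regulators. FIG4, a phosphoinositide phosphatase of endosomal membranes, had 5.61, 3.68 and 4.78 CPM in MU14 and 4.35 and 4.88 CPM in MU17, against 8.98, 9.83 and 11.5 CPM in the other strains. Las, the lipoic acid synthase, had 10.6, 12.5 and 12.9 CPM in MU14 and 12.1 and 14.0 CPM in MU17, against 19.8, 23.7 and 30.0 CPM. Both genes were about even within each group, with fitted log2 differences of -1.11 ± 0.12 and -0.96 ± 0.12 (SE). Brd8, a bromodomain subunit of a histone acetyltransferase complex, was at 7.07 to 14.1 CPM in MU14 and MU17 and at 20.1 to 47.9 CPM in the others. Cndp2, a dipeptidase gene, was at 140 to 221 CPM against 320 to 415 CPM. The remaining CG13012, CG31743 and CG15369 had log2 differences of -1.29 ± 0.18, -1.27 ± 0.25 and -1.82 ± 0.17 (SE).

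Some lower members also differed within the pair. CG30428 had 8.78, 7.88 and 8.65 CPM in MU14 and 0 counts in both libraries of MU17, against 11.9, 13.9 and 15.5 CPM in the other strains. Over both MU17 libraries, 0 counts allow up to 0.0330 CPM, so the split joined a gene without counts in MU17 with a small difference in MU14. The gene mthl3, of the methuselah receptor family, showed the same shape with 47.3, 40.9 and 41.7 CPM in MU14 and 4.86 and 5.47 CPM in MU17, against 53.6, 57.4 and 63.2 CPM. The log2 difference of MU14 over MU17 in mthl3 was 3.07 ± 0.14 (SE, edgeR's adjusted p = 3.73e-06). CG17109 was instead lowest in MU14, at 0.213 to 0.486 CPM, and had 11.96 and 3.84 CPM in MU17, against 6.07 to 33.2 CPM. CG31664 had 0.0266 to 0.0729 CPM in MU14 and 0.509 and 1.38 CPM in MU17, against 0.669 to 25.0 CPM in the others, and its call within the pair was lost under 6 of 12 alternatives.

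The lists of glycolysis and of glycogen and trehalose held more lower than higher members. Beyond the naming rule, the list members below were picked out after their values were seen. Of 17 genes of the glycolysis list, which also held gluconeogenesis genes, 7 were lower members (41.2%, against 10.3% of all tested genes) and 1 was higher. The median log2 difference of the list was -0.49, against -0.01 over all genes. The highest quartile of expression, where 16.2% of tested genes were lower and 2.66% were higher members, held 13 of the 17. Gapdh2, which makes the glycolytic glyceraldehyde-3-phosphate dehydrogenase, had 170, 149 and 185 CPM in MU14 and 206 and 162 CPM in MU17, against 271, 331 and 528 CPM as the lowest, median and highest in the other strains. Pgk, the phosphoglycerate kinase gene, had 73.9, 72.8 and 75.5 CPM in MU14 and 96.4 and 81.1 CPM in MU17, against 122, 134 and 188 CPM. In both genes every MU14 and MU17 library was below every other one, with fitted log2 differences of -0.98 ± 0.13 and -0.81 ± 0.11 (SE). Pfk, which encodes the rate-setting phosphofructokinase, and Pglym78, a phosphoglycerate mutase gene, also did not overlap, at 8.08 to 18.4 against 19.8 to 51.2 CPM and at 28.9 to 38.6 against 46.4 to 87.0 CPM. Pgi, which makes an isomerase of the first steps, overlapped at 61.5 to 100 CPM in MU14 and MU17 and 96.4 to 276 CPM in the others. The 7 lower members also counted fbp and Pepck2, which act in the reverse direction, gluconeogenesis. Without MU26 replicate 2 the mean log2 difference of fbp was 0.032. Ldh, the lactate dehydrogenase gene, was the higher member at a low level, 0.559 to 1.56 CPM against 0.190 to 0.681 CPM. Without MU26 replicate 2 the count of lower members in the list was 4.

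All 10 genes of glycogen and trehalose metabolism had a negative difference, and 4 of them (40%, against 10.3% of all tested genes) were lower members. The highest quartile of expression, where 16.2% of tested genes were lower members, held 5 of the 10. Glys, the glycogen synthase, had 8.09, 7.78 and 9.23 CPM in MU14 and 11.4 and 8.48 CPM in MU17, against 12.4, 17.6 and 29.7 CPM in the other strains, without overlap (log2 difference -1.06 ± 0.17 (SE)). Tps1, which makes the blood sugar trehalose, was at 469, 527 and 762 CPM in MU14 and 345 and 257 CPM in MU17, against 441, 859 and 948 CPM. Its lowest values were those of MU17, and MU14 overlapped with the other strains. Pgm1 and PhKgamma, which act in glycogen turnover, overlapped between the groups as well. The median log2 difference of the list was -0.54, and its count of lower members was 2 without MU12 replicate 2, without MU26 replicate 2 or with upper-quartile scaling. The 6 maltase genes had 1 higher and 1 lower member and a median of 0.36, which ranged from -0.20 to 0.39 without single libraries. None of the 3 lysosomal alpha-mannosidase genes was a member, but all 3 had a negative difference, with a median of -0.78.

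The citric acid cycle list, which included the pyruvate-handling enzymes that feed it, had 6 lower members of 20 (30%, against 10.3% of all tested genes) and no higher one. The highest quartile of expression, where 16.2% of tested genes were lower and 2.66% were higher members, held 13 of the 20. Ogdh, a subunit of the 2-oxoglutarate dehydrogenase, had 33.0, 35.1 and 42.6 CPM in MU14 and 36.6 and 22.4 CPM in MU17, against 51.8, 73.6 and 118 CPM. ScsbetaG, a succinyl-CoA ligase subunit, was at 127 to 157 CPM in MU14 and MU17 and 165 to 339 CPM in the others. Neither overlapped between the groups, and their fitted log2 differences were -1.19 ± 0.18 and -0.72 ± 0.11 (SE). Idh3g, Mdh1, PCB and muc were lower by strain mean but overlapped between libraries. Without MU26 replicate 2 the list had 3 lower members. The respiratory complexes, with 64 tested genes, had 1 higher and 4 lower members and a median of -0.07, a sign that turned positive with upper-quartile scaling.

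Fat storage genes were lower in a smaller number. Of 17 genes of lipid droplets, lipolysis and lipoprotein assembly, 4 were lower members (23.5%, against 10.3% of all tested genes) and none was higher. The highest quartile of expression, where 16.2% of tested genes were lower and 2.66% were higher members, held 10 of the 17. Lpin, the phosphatidate phosphatase of triglyceride synthesis, had 104, 115.03 and 125 CPM in MU14 and 111 and 55.2 CPM in MU17, against 157, 255 and 350 CPM. Brummer, bmm, the main triglyceride lipase of the fly fat body, had 59.7, 65.5 and 94.8 CPM in MU14 and 59.7 and 59.5 CPM in MU17, against 97.9, 130 and 202 CPM. Members that build up and break down fat were thus low in the same libraries, with fitted log2 differences of -1.42 ± 0.22 and -1.06 ± 0.17 (SE). Mtp, which loads lipid onto lipoproteins, was at 172 to 225 CPM against 228 to 342 CPM, and the droplet coat gene Lsd-2 overlapped. Fatty acid synthesis, with 2 higher and 1 lower of 16 genes, was near the background.

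The proteasome genes differed by little and mostly in 1 direction, with 14 lower members of 35 (40%, against 10.3% of all tested genes), no higher one and a median log2 difference of -0.28. Of the 35, 33 were in the highest quartile of expression, where 16.2% of tested genes were lower and 2.66% were higher members. Prosalpha7, a subunit of the core ring, had 69.2, 70.6 and 70.7 CPM in MU14 and 68.4 and 68.8 CPM in MU17, against 76.7, 92.6 and 125 CPM in the others. The 5 libraries of MU14 and MU17 lay close together and below the 6 others, and the fitted log2 difference was -0.44 ± 0.09 (SE). Prosalpha2, with 113 to 121 CPM against 123 to 182 CPM, was the other subunit without overlap. This count depended on the scaling of the libraries, since 2 subunits met the rule with upper-quartile factors, and it was 22 without MU10 replicate 1. Of 19 autophagy genes 5 were lower members (26.3%), and 10 of the 19 were in the highest quartile of expression. Among the 5 was Atg1, the kinase that starts autophagy, at 113 to 236 CPM against 213 to 456 CPM, and Atg16 was the member without overlap.

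Storage proteins, the main secreted product of the larval fat body, had a negative difference in 6 of 6 genes, but libraries overlapped in all of them. Lsp1beta and Lsp1gamma, hexamerin subunits, were the 2 lower members. Lsp1beta had 6965, 6877 and 8409 CPM in MU14 and 21558 and 4702 CPM in MU17, against 8851, 17584 and 25454 CPM. MU17 replicate 1 lay among the highest libraries and replicate 2 was the lowest of all, so the position of MU17 rested on a mean of unlike values.

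Serpins, inhibitors that hold proteolytic cascades of immunity and melanisation in check, had 5 lower members of 16 (31.2%, against 10.3% of all tested genes) and 1 higher. The highest quartile of expression, where 16.2% of tested genes were lower members, held 10 of the 16. The list's median log2 difference was -0.15, which ranged from -0.43 to 0.014 without single libraries. Relative to the 3 other strains, the median was -0.27 in MU14 and 0.03 in MU17. Spn42Dc had 29.9, 31.3 and 30.2 CPM in MU14 and 43.4 and 41.9 CPM in MU17, against 64.9, 73.1 and 76.1 CPM. Its neighbour Spn42Db was at 3.88 to 6.59 CPM in MU14 and MU17 and 8.01 to 11.2 CPM in the others. Spn42Dd, in the same cluster, had 19.3, 23.96 and 24.4 CPM in MU14 and 110 and 101 CPM in MU17, against 119, 161 and 226 CPM. The 3 genes were all lower without overlap, and for Spn42Dd most of the difference lay in MU14 (MU14 minus MU17, -2.23 ± 0.15 (SE) on the log2 scale, edgeR's adjusted p = 6.06e-05). Not all genes of the cluster were members, as Spn42Da, at 365 to 427 CPM against 336 to 483 CPM, and Spn42De were not. Copies of this cluster are related in sequence and read pairs that matched more than 1 gene were discarded, so levels of single copies are uncertain.

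Detoxification and redox genes went both ways. Of 58 cytochrome P450 genes 9 were lower (15.5%, against 10.3% of all tested genes) and 5 were higher members (8.62%, against 12.1%). Cyp6g1, known for insecticide resistance and abundant here, had 7654, 9906 and 9587 CPM in MU14 and 10589 and 9118 CPM in MU17, against 11185, 13911 and 17493 CPM. The groups came within 0.08 log2 units but did not overlap (log2 difference -0.59 ± 0.09 (SE)). Cyp4d8 was at 0.417 to 1.51 CPM in MU14 and MU17 and 3.48 to 14.9 CPM in the others, and Cyp6v1 at 54.6 to 86.2 against 94.7 to 136 CPM. The peroxiredoxin genes Prx6b and Prx6c, near neighbours of similar sequence, were lower members too. Prx6c had 59.1, 27.7 and 60.9 CPM in MU14 and 30.8 and 37.6 CPM in MU17, against 89.7, 123 and 1588 CPM, and the high end was MU26 alone. Gclc, the catalytic subunit of glutathione synthesis, ran the other way at 9.79 to 22.7 CPM against 5.60 to 8.25 CPM, while its partner Gclm was a lower member with overlap.

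Salivary gland markers had the largest share of higher members among the lists with at least 8 tested genes. Of 8 tested salivary gland markers 7 were higher members (87.5%, against 12.1% of all tested genes), 5 without overlap, and the median log2 difference was 2.78. The lowest quartile of expression, where 26.1% of tested genes were higher members, held 5 of the 8. Sgs3, a glue protein, had 43.5, 10.5 and 16.4 CPM in MU14 and 17.2 and 41.8 CPM in MU17, against 0.706, 3.47 and 5.54 CPM as the lowest, median and highest in MU10, MU12 and MU26. Sgs5 had 11.5, 3.46 and 4.32 CPM in MU14 and 4.33 and 15.01 CPM in MU17, against 0.324, 0.895 and 1.20 CPM. In both genes MU14 replicate 1 and MU17 replicate 2 were the highest libraries, and the fitted log2 differences were 3.45 ± 0.42 and 3.43 ± 0.45 (SE). Sgs1 and Sgs8 did not overlap either, at 0.996 to 3.06 against 0 to 0.173 CPM and at 3.08 to 9.71 against 0.590 to 2.37 CPM. Sgs4 and Sgs7 overlapped slightly. Eig71Ee, an ecdysone-induced gene of the glands, was at 1.79 to 33.4 CPM in MU14 and MU17 and 0.177 to 1.76 CPM in the others.

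Summed over the 12 listed salivary gland markers, the level was 105, 32.7 and 38.2 CPM in MU14 and 55.9 and 156 CPM in MU17, against 4.47 to 19.99 CPM in the other strains. The markers ng1, ng2 and ng4 had 0 counts in every library, and Sgs5bis was no member, with 0.267 to 0.984 CPM in MU14 and 3.76 and 9.75 CPM in MU17, against 0.669 to 1.81 CPM in the others. For this glue gene MU17 was above the other strains and MU14 was not. The part of salivary gland tissue in the other differences was not tested. Without any 1 of the 11 libraries, the count stayed at 7 of 8.

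**Figure D4:**
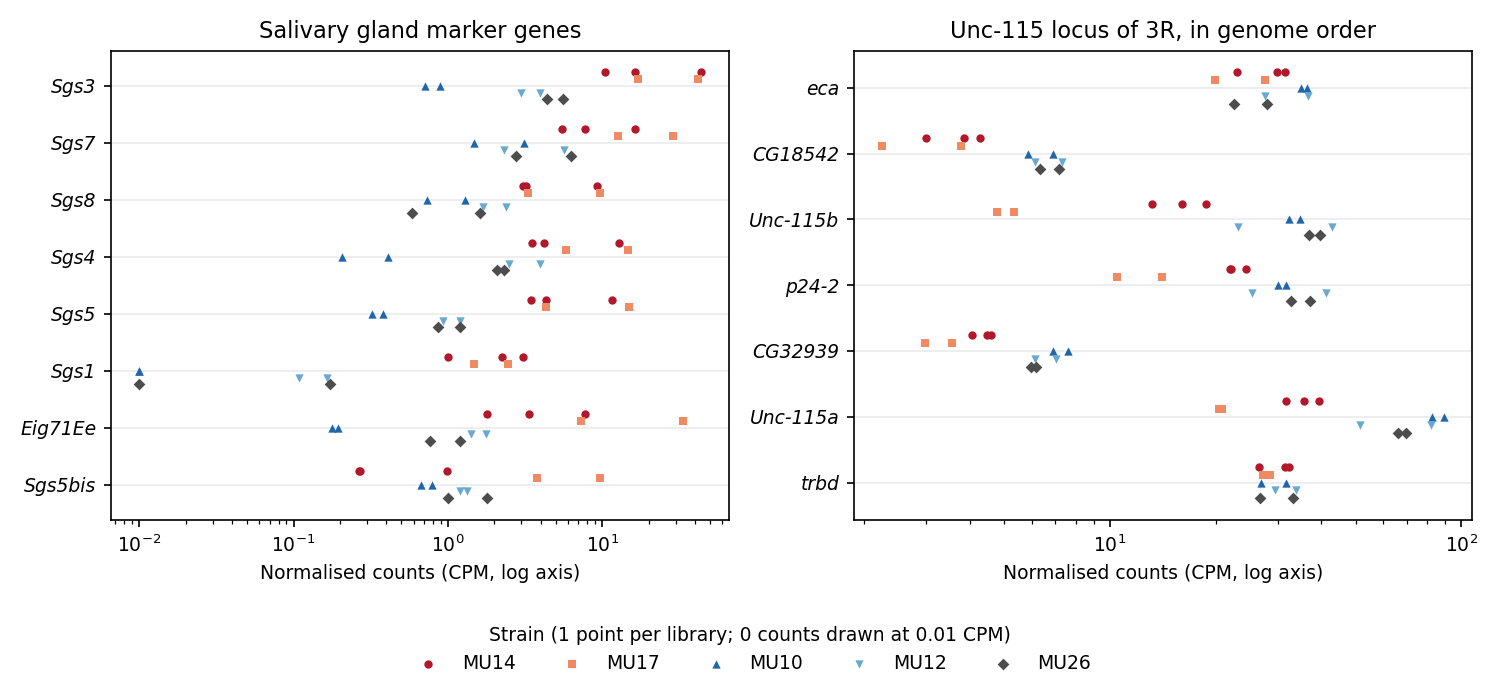
Normalised counts per library (horizontal log axis, CPM) of the 8 tested salivary gland markers (left) and of 7 neighbouring genes on chromosome arm 3R (right), with 1 point per library and libraries at 0 counts drawn at 0.01 CPM. The glue genes are higher in MU14 and MU17 except Sgs5bis, and on the right the 5 genes between eca and trbd are lower in MU14 and MU17 without overlap.

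Markers of several other tissues also leaned to the higher side, in short lists of genes at low levels. Higher members were 3 of 10 nervous system markers (30%), 2 of 6 Malpighian tubule markers (33.3%), 2 of 6 testis markers (33.3%) and 3 of 21 muscle markers (14.3%), against 12.1% of all tested genes and 26.1% of those in the lowest quartile of expression. The mean difference was positive in 9 of 10, 5 of 6, 5 of 6 and 18 of 21 of these genes, against 4138 of 8415 tested genes, and the median levels of the 4 lists were 1.29, 3.33, 1.02 and 1.54 CPM. None of 4 midgut and 5 prothoracic gland markers was higher. The part of these tissues in the other differences was not tested. Of 15 female germ line markers 14 had a positive difference and 4 were higher members (26.7%). This share was near the 26.1% of the lowest quartile of expression, which held 10 of the 15. The 4 were armi, AGO3, piwi and bgcn, of which the first 3 act in the piRNA pathway that silences transposons. The gene piwi had 10.1, 10.6 and 8.02 CPM in MU14 and 3.83 and 4.68 CPM in MU17, against 2.33, 3.24 and 4.06 CPM. It was high in MU14 and near the other strains in MU17, and the list's median difference from the 3 other strains was 1.51 in MU14 and 0.20 in MU17. The gene armi was the member without overlap, at 7.53 to 11.9 CPM in MU14 and MU17 and 4.56 to 6.81 CPM in the others. Summed haemocyte markers overlapped at 1146 to 1334 CPM against 1068 to 1630 CPM. Of 15 tested haemocyte markers 3 were higher members (20%, against 12.1% of all tested genes) and 1, srp, was a lower member. The higher ones, all at low levels, were PPO3, ItgaPS4 and atilla, which mark lamellocytes, the blood cells that encapsulate parasites. PPO3 and ItgaPS4 did not overlap but were lower in MU14 than in MU17 (edgeR's adjusted p = 0.00789 and 0.0109), calls lost without MU17 replicate 1. ItgaPS4 had 0.559 to 1.17 CPM in MU14 and 3.14 and 9.72 CPM in MU17, against 0.0543 to 0.453 CPM. The levels of atilla were 0 to 0.532 CPM in MU14 and 0.869 and 3.00 CPM in MU17, against 0.0235 to 0.194 CPM. Summed muscle markers were at 377 to 505 CPM against 299 to 451 CPM and also overlapped, as did those of nervous system, Malpighian tubule, midgut, prothoracic gland, germ line and testis. Such sums follow their most abundant genes, as Syt1 alone had 536 to 613 CPM in MU14 and MU17 and 468 to 613 CPM in the others, of nervous system sums of 568 to 645 CPM and 501 to 654 CPM. Cuticle and epidermis markers summed to 2936 to 4968 CPM in MU14 and MU17 and 5347 to 8732 CPM in the others, almost all of it from Cpr49Ac, a cuticle protein gene and lower member at 2820 to 4897 CPM against 5281 to 8680 CPM. The sum thus follows 1 gene. By gene, 8 of the 14 tested cuticle markers had a positive difference, with a median of 0.22, which ranged from -0.15 to 0.61 without single libraries. The part of cuticle tissue in the other differences was not tested.

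Immune effectors had higher means over MU14 and MU17, but most were no members. All 15 antimicrobial peptide genes had a positive mean difference, with a median of 1.004 log2 units. AttC and Drs met the rule (13.3%, against 12.1% of all tested genes). In 11 of the 15 MU17 was the highest strain, and against the 3 other strains the list's median was 2.25 in MU17 and -0.27 in MU14. Drs, the antifungal drosomycin, had 1294, 977 and 1854 CPM in MU14 and 9018 and 2718 CPM in MU17, against 538, 680 and 2300 CPM. MU17 replicate 1 was far above all others, and MU14 lay inside the range of the other strains. Among 16 bomanins, daishos and baramicins, short peptides released under Toll signalling, 4 were higher members (25%, against 12.1% of all tested genes). The lowest quartile of expression, where 26.1% of tested genes were higher members, held 7 of the 16. The 4 members were BomS2, BomT2, BaraA1 and BaraA2. BaraA2 had 136, 179 and 592 CPM in MU14 and 2156 and 187 CPM in MU17, against 14.1, 170 and 284 CPM, so its groups overlapped, as did those of the other 3.

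Bbd and Tep1 were higher immune members without overlap. Bbd, or Bombardier, which bomanins need to act, had 843, 985 and 1400 CPM in MU14 and 2516 and 932 CPM in MU17, against 265, 416 and 589 CPM in the other strains (log2 difference 1.67 ± 0.29 (SE)). Tep1, a secreted thioester protein of the complement-like family, had 25.8, 27.1 and 31.8 CPM in MU14 and 584 and 31.8 CPM in MU17, against 2.44, 6.99 and 12.4 CPM. All 5 values were above the other strains, and the single value of 584 CPM came from MU17 replicate 1. With that library left out, the mean log2 difference of Tep1 was 2.12, against 3.17 with it, and its MU14 to MU17 difference was no longer called. Signalling genes of the Toll and Imd pathways, with 2 higher and 3 lower of 37, fell below the background shares, and the kinase gene Tak1 was a lower member without overlap, at 32.6 to 38.3 CPM in MU14 and MU17 and 39.8 to 52.7 CPM in the others. Tsf1, the iron carrier of the blood, was high in MU14 at 6506, 5449 and 6379 CPM and in MU17 at 5495 and 2067 CPM, against 504, 2242 and 3053 CPM, with overlap through MU17 replicate 2.

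Lists of gene expression machinery went different ways. Of 74 mitochondrial ribosomal proteins, with a median level of 3.90 CPM, 11 were higher (14.9%) and 2 lower (2.7%), near the 12.1% of higher members over all tested genes and the 13.5% in the second quartile of expression. Of 33 aminoacyl-tRNA synthetases 6 were higher (18.2%) and 1 lower (3.03%). Without MU17 replicate 1 the count of mitochondrial ribosomal proteins was 17 higher genes. LysRS, which charges lysine tRNA, had 36.6, 39.4 and 35.9 CPM in MU14 and 28.3 and 27.7 CPM in MU17, against 17.5, 22.5 and 27.6 CPM. It met the rule without overlap by a narrow margin, with a fitted log2 difference of 0.52 ± 0.10 (SE). The gene mRpS30, for a protein of the small mitochondrial ribosome subunit, was at 5.72 to 6.14 CPM against 3.56 to 5.29 CPM. Cytosolic ribosomal proteins had a negative difference in 70 of 87 genes but only 3 higher (3.45%) and 1 lower member (1.15%), and their 2 strains parted, with a median of 0.12 in MU14 and -0.30 in MU17 relative to the 3 other strains.

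**Figure D5:**
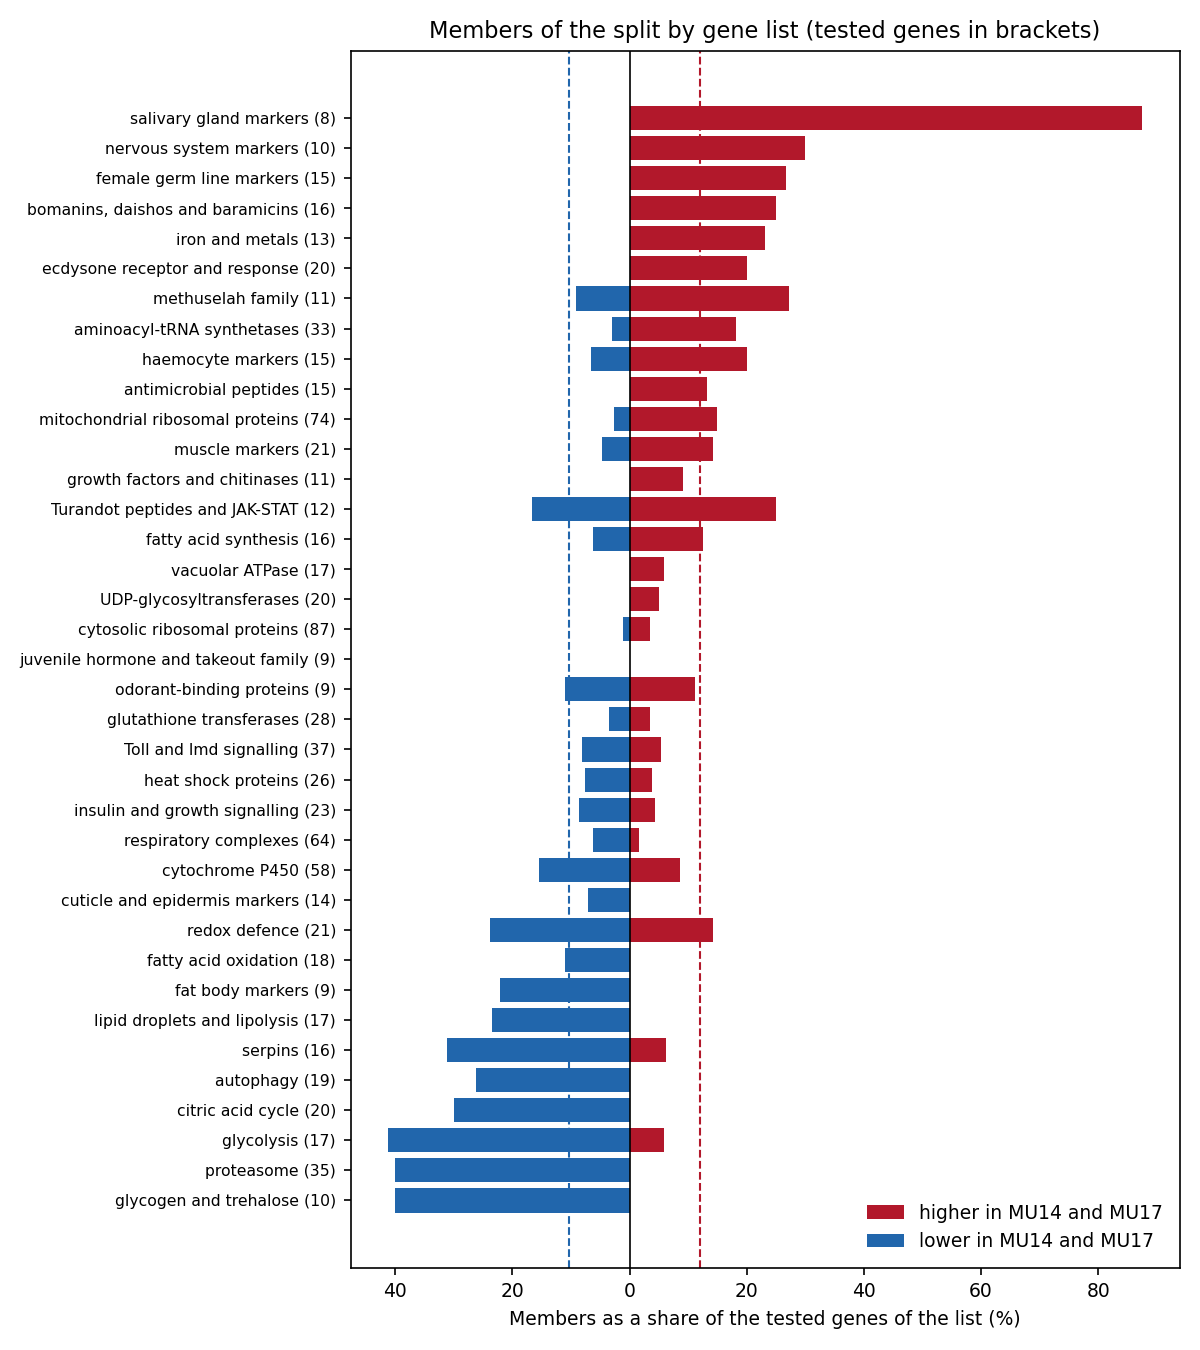
Members as a percentage of the tested genes of each list with at least 8 tested genes (number in brackets), to the right for genes higher and to the left for genes lower in MU14 and MU17. Dashed lines mark all tested genes, at 12.1% and 10.3%. The bars run from salivary gland markers at 87.5% higher to the glycolysis list, which includes gluconeogenesis genes, at 41.2% lower.

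The direction of the members followed their expression level. Higher members had a median of 2.57 CPM and lower members of 27.2 CPM, against 11.1 CPM over all tested genes. In the lowest quartile of expression 26.1% of genes were higher and 3.61% were lower members, while in the highest quartile 2.66% were higher and 16.2% lower. With upper-quartile scaling, which raised the median difference of all genes by 0.08 log2 units, the split was 1348 higher and 464 lower genes in place of 1019 and 864. All 1019 higher members were among the 1348 and all 464 lower genes were among the 864. The highest quartile then held 4.99% higher and 8.98% lower genes and the lowest 29.8% and 2.61%.

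More genes were detected in MU14 and MU17. At least 1 count was found for 11492 to 11871 genes in their libraries and for 10591 to 11311 genes in those of MU10, MU12 and MU26. At an equal depth, that of the shallowest library, the expected numbers were 11458 to 11740 genes against 10551 to 11283, without overlap. The part of this in the higher members of low expression was not tested. Length varied less between the directions, with a median of 2451 bases in higher and 2121 bases in lower members, against 2085 over all tested genes, and the longest quartile held 15.7% higher and 8.89% lower members.

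Members were spread over all chromosome arms. Higher members made up 11.6% to 13.1% and lower members 9.27% to 11% of the tested genes on X, 2L, 2R, 3L and 3R, and 3 higher and 8 lower members were among the 71 tested genes of chromosome 4. Neighbouring tested genes formed 9 runs of at least 4 members in 1 direction, 5 of them higher and 4 lower. On 3L the run from 11487550 to 11513402 held chrb, a stress-induced inhibitor of TOR signalling, with the glue genes Sgs8, Sgs7 and Sgs3. The level of chrb was 4.47 to 7.31 CPM in MU14 and MU17 and 1.501 to 4.94 CPM in the others.

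The only run whose genes were all without overlap lay on 3R from 9685760 to 9705417 and held CG18542, Unc-115b, p24-2, CG32939 and Unc-115a, all lower. Unc-115a and Unc-115b are paired copies of an actin-binding protein gene, and p24-2 encodes a cargo receptor of the early secretory pathway. Unc-115a had 35.7, 31.8 and 39.4 CPM in MU14 and 20.8 and 20.5 CPM in MU17, against 51.6, 75.8 and 89.01 CPM as the lowest, median and highest in the other strains. Unc-115b had 16.04, 13.2 and 18.8 CPM in MU14 and 4.77 and 5.32 CPM in MU17, against 23.2, 35.9 and 42.7 CPM. Both copies were lowest in MU17, with MU14 between it and the 3 other strains, and fitted log2 differences between the groups were -1.43 ± 0.13 and -1.96 ± 0.17 (SE). Within the pair, Unc-115b was higher in MU14 by 1.66 ± 0.26 log2 units (SE, edgeR's adjusted p = 0.00391).

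The other 3 genes of the run were lower by less. CG18542 was at 2.25 to 4.27 CPM in MU14 and MU17 against 5.86 to 7.33 CPM, and CG32939 at 2.97 to 4.601 against 5.97 to 7.58 CPM. The level of p24-2 was 10.5 to 24.3 CPM against 25.3 to 41.2 CPM. The flanking genes were no members, with eca at 19.9 to 31.4 CPM against 22.6 to 36.7 CPM and trbd at 26.6 to 32.3 CPM against 26.7 to 33.8 CPM. Genes of the run are copies of each other or overlap, and eca resembles p24-2, so the discarding of read pairs with more than 1 match leaves the level of single genes uncertain.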

How the data were processed

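Read counts of 13931 genes in 11 libraries were taken as deposited, unnormalised, with a length per gene. Per the study's methods, the authors enriched for poly-A transcripts, ran 150 bp paired reads on an Illumina HiSeq, mapped them with NextGenMap to the FlyBase 6.21 transcriptome and discarded ambiguous pairs. All strains were mapped to 1 reference, so sequence or copy differences between strains could change counts, which was not tested. Strandedness is not given in the sources used here, so overlapping genes may share reads.

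Names and coordinates are those of BDGP6 (6.54, the Release 6 assembly). FlyBase identifiers matched 13843 genes, CG numbers matched a further 75, and 13 unmatched genes are shown by CG number. In 3 genes the chromosome disagreed.

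Strain labels gave the groups. A filter at a mean of 15 counts removed 5516 genes and kept 8415. TMM factors (0.833 to 1.16) and a prior count of 2 gave log2 CPM. Median depth was 38321327 counts. One edgeR 4.0.16 model (R 4.3.3) held a term for each strain, with a biological coefficient of variation of 0.225. Quasi-likelihood tests compared MU14 with MU17, and MU10, MU12 and MU26 among themselves, with Benjamini-Hochberg adjustment over the 8415 genes. Differences between the groups of strains are untested, either fitted with an SE or, where called means, differences of strain means. The SE covers the spread of libraries within strains, not that between the strains of a group. Floors of 3 counts cover counting error only. The scripts were tested on simulated data.

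Members, gene lists and tests were chosen with earlier results of these data known. Genes were named by 6 criteria: the 12 higher and 12 lower with the widest library gap, among members without overlap and at 10 CPM or more in the higher group; the 6 most abundant in each direction with a gap of at least 0.5; up to 2 per list and direction without overlap; members of runs of at least 4 neighbours; the 3 in each direction with the largest called difference of MU14 from MU17; and genes at the edge of the rule. The text gives a part of them. Alternatives were RLE and upper-quartile factors, no filter or filterByExpr, linear strain means, stricter rules, DESeq2 1.42.0, a replicate block, only the compared strains, and each library left out. Other prior counts and list counts without single libraries were chosen after seeing the data.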

Additional observations from a re-analysis of the deposited data

How the results depend on the processing

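With upper-quartile factors 464 genes were lower members, 2 of them in glycogen and trehalose and 2 in the proteasome, and 20 mitochondrial ribosomal proteins were higher. With no filter on low counts 1881 genes were higher. Requiring no library overlap left 247 higher and 190 lower genes, and a strain gap of at least 1 left 58 and 14. With only MU10, MU12 and MU26 in the fit, 1564 genes and 135 members were called among them. Without any 1 library, higher members numbered 940 to 1097 and lower members 756 to 916, with 82.1% to 93.3% and 80.1% to 91.8% of the main members shared and none on the other side. Over the same alternatives lower members ranged from 4 to 9 in glycolysis, 2 to 6 in glycogen and trehalose, 3 to 7 in the citric acid cycle, 10 to 22 in the proteasome, 4 to 5 in lipid droplets and 4 to 6 in serpins, while higher members were 8 to 17 in mitochondrial ribosomal proteins and 7 in salivary gland markers. Calls between MU14 and MU17 ranged from 674 to 1038 genes and 67 to 113 members, and among MU10, MU12 and MU26 from 1841 to 2542 genes and 144 to 243 members. The mean log2 difference of fbp ranged from -0.48 to 0.032 without single libraries, crossing 0 without MU26 replicate 2. The cause of these shifts was not tested.

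Replicate numbers were not taken as pairs, since not every strain pair correlated over 0.1. Deviations of replicate 1 libraries from their strain means correlated at -0.303 to 0.268, with 5 of 10 strain pairs over 0.1, and with 2 libraries in a strain those of replicate 2 mostly mirror them. With a replicate block, 913 genes differed between MU14 and MU17, and the counts of members called stayed within 1.5 times the main ones.

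With 2 or 3 libraries per strain, a member of the lowest expression quartile can rest on few counts, and 5 strains do not represent a population.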

Other observations

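Hormone and stress genes were outside the accounts above. Of 20 genes of ecdysone reception and response 4 were higher members (20%, against 12.1% of all tested genes) and none was lower, with a list median of 0.04 on the log2 scale, which ranged from -0.07 to 0.14 without single libraries. ImpE2, an ecdysone-induced gene of larval tissues, had 4.28, 5.13 and 3.96 CPM in MU14 and 3.39 and 8.10 CPM in MU17, against 0.971, 2.65 and 3.23 CPM as the lowest, median and highest in MU10, MU12 and MU26. The groups of ImpE2 were apart by 0.07 log2 units. Eip93F, an ecdysone-induced regulator of metamorphosis, met the rule with overlap, at 9.55 to 24 CPM against 3.37 to 26.1 CPM, and ImpE1 at 1.83 to 3.30 CPM against 0.706 to 2.25 CPM.

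Of 26 heat shock protein genes 21 had a positive difference, with a median of 0.36. In this list 1 was a higher (3.85%) and 2 were lower members (7.69%), against 12.1% and 10.3% of all tested genes. Of 12 Turandot and JAK-STAT genes 3 were higher (25%, against 12.1% of all tested genes) and 2 were lower members (16.7%, against 10.3%). The lowest quartile of expression, where 26.1% of tested genes were higher members, held 4 of the 12. The median of this list was 0.05, which ranged from -0.24 to 1.06 without single libraries. The stress peptide gene TotZ was at 0.233 to 2.13 CPM in MU14 and MU17 and 0.109 to 0.317 CPM in the others. The receptor gene dome and the transcription factor gene Stat92E of the same pathway were lower members with overlap, with Stat92E at 619 to 924 CPM against 706 to 1044 CPM. No gene of the juvenile hormone and takeout list was a member, although 8 of its 9 tested genes had a negative difference.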
